A study of Mus musculus with 4 samples.

Results

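The Ly6 surface antigen genes were followed in activated splenic T cells of mice with and without ceramide synthase 6 (Cers6), at 2 ages. The 8 genes are Ly6a, Ly6c1, Ly6c2, Ly6d, Ly6e, Ly6g, Ly6i and Ly6k, out of 35275 genes in the deposited table, and all 8 were found there by symbol. They were chosen by family name together with the levels they showed in these same 4 libraries, so their levels and fold changes are given as a description, with no test. Every library came from splenic T cells of C57BL/6 mice, cultured for 3 days with antibodies to CD3 and CD28 plus IL-2. Knockout mice aged 8 months stand against wild-type mice of the same age, and knockout mice aged 2 months against their wild-type peers, with 1 library in each of these 4 groups. Cers6 is one of the enzymes that join a fatty acyl chain to a sphingoid base to make ceramide. The labels give no sex, do not name the deleted part of Cers6 and do not say whether mice were pooled, and the series' own text speaks of duplicates while each group here has 1 library. No spread between mice of a group could be measured, and each interval below is a 95% interval that covers counting error only.

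Ly6 genes encode small, cysteine-rich proteins, most of them tethered to the outer membrane by a glycosylphosphatidylinositol (GPI) anchor. In mice they lie in a cluster on chromosome 15 and are widely used as cell surface markers. Ly6a (Sca-1) and the Ly6C antigen, encoded by Ly6c1 and Ly6c2, are raised on T cells by activation and by interferons, and Ly6C also marks monocytes and memory CD8 T cells. Ly6e is an interferon-inducible member first described on thymocytes. Ly6d marks B cell commitment among lymphoid progenitors, Ly6g marks neutrophils, and Ly6k is known from the testis.

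Ly6c1 and Ly6c2 are near copies, which bears on every value given for them. Their coding sequences (transcripts Ly6c1-201 and Ly6c2-201 of GENCODE M21, GRCm38 chromosome 15, minus strand) differ at 9 of 396 bases, an identity of 97.7%. The first 300 bases, which hold 7 of the 9, are shown 5′ to 3′ with the differing bases in capitals.
Ly6c1: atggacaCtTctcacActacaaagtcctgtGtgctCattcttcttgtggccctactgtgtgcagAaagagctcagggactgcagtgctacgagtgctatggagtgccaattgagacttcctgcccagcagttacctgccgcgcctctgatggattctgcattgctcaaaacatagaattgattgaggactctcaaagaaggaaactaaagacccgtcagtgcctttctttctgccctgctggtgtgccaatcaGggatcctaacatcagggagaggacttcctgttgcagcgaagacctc
Ly6c2: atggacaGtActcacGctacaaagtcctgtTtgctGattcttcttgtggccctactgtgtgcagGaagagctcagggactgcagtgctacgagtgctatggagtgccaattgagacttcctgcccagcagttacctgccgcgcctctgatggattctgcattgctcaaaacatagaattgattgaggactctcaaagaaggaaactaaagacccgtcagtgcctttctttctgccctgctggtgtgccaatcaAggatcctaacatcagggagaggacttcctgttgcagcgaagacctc

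The other coding sequences were less alike. Ly6a matched Ly6i at 86.4%, Ly6g at 83.2%, Ly6c1 at 82.0% and Ly6c2 at 81.7% of aligned bases, while the pair Ly6d and Ly6k matched at 46.5%, the lowest of the 28 pairs. Over all annotated transcripts, 32.8% of the 50-base stretches of Ly6c1, 17.7% of those of Ly6a and 13.98% of those of Ly6c2 occur unchanged in another of the 8 genes. For stretches of 150 bases these shares were 2.29%, 0% and 1.42%. Ly6d, Ly6e and Ly6k shared no stretch of any of these lengths. The sources used here do not give how the authors counted reads that match several genes, so the split of counts between Ly6c1 and Ly6c2, and to a lesser degree Ly6a, is uncertain.

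Of the upstream sequences, RefSeq (GRCm38.p6) supplied those of 3 of the 8 genes, Ly6c1, Ly6c2 and Ly6g. The 250 bases before the outer start of Ly6c1 and Ly6c2 are printed because both genes were low in the same library, and capitals mark a match to an NF-κB motif, spelled GGGA, any 4 bases, CC.
Ly6c1 (chr15:75048838-75049087, minus strand): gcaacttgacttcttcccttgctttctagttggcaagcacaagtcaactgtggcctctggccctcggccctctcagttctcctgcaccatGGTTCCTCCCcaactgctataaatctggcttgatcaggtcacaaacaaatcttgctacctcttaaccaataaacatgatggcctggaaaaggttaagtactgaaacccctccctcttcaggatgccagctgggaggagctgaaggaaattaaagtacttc
Ly6c2 (chr15:75111972-75112221, minus strand): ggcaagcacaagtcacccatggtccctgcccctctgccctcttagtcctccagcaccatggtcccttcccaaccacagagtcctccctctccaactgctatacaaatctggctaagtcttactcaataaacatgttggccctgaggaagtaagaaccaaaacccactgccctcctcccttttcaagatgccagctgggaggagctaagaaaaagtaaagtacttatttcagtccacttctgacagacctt
Both strands were searched for 3 motifs. RefSeq held 6 promoters for the 3 genes, and a gene counted when any of its promoters matched. The shares given beside them are of single promoters, so the gene counts and the shares are not counted alike. The NF-κB motif was present upstream of Ly6c1 and Ly6g and in 17.6% of the 32851 promoters of the table. The core of the interferon-stimulated response element (GAAA, any 2 bases, GAAA) and the gamma-activated site (TTCNNNGAA) were in none of the 3, against 2.98% and 7.02% of all promoters. With 50 more bases downstream of the start, the NF-κB motif was in all 3, against 20.7% of all promoters.

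At 8 months the libraries held 20342672 counts (knockout) and 21886108 counts (wild type), and at 2 months 18145555 (knockout) and 24239344 (wild type). Some libraries stood apart. In wild type at 8 months, the T cell receptor segment Trbv14 took 98.6% of the Trbv counts, against 5.12% to 7.40% in the other 3, and the summed level of 13 neutrophil markers was 130.4 CPM, counts scaled to a common library size, against 0.464 to 8.00. Xist was present in the 2-month wild-type library, at 440.5 CPM against at most 0.171 CPM elsewhere. Knockout over wild type at 2 months and 8 over 2 months in wild type therefore also differ in Xist. Cers6 itself measured 3.38 CPM in knockout against 32.0 CPM in wild type at 8 months, and 9.17 CPM against 13.1 CPM at 2 months. The 10 T cell markers, Cd3e among them, summed to between 1859 and 2415 CPM, and the 12 B cell markers to between 1604 and 3814 CPM, so RNA of other lymphocytes was present in every library. In such bulk RNA, fewer cells of a type and less RNA per cell cannot be told apart.

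Ly6a and Ly6e carried most of the family's RNA in every library. Ly6a (ENSMUSG00000075602, GRCm38 chromosome 15, 74994877 to 74998031, minus strand) measured 694 CPM in knockout and 669 CPM in wild type at 8 months, and 988 CPM in knockout and 1117 CPM in wild type at 2 months. Ly6e (ENSMUSG00000022587, 74955051 to 74959905, plus strand) measured 789 CPM in knockout and 1577 CPM in wild type at 8 months, and 1238 CPM in knockout and 1439.6 CPM in wild type at 2 months. Ly6a was lower at 8 months in either genotype, whereas Ly6e was low in the 8-month knockout alone. Ranked by mean CPM among genes with a count, Ly6a stood at percentile 99.3 and Ly6e at 99.5.

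Per kilobase of gene, Ly6a was the highest member in each library. It reached 726 CPM per kb in knockout and 700.4 in wild type at 8 months, and 1034 in knockout and 1169.8 in wild type at 2 months. Ly6e followed at 346, 691, 543 and 631 CPM per kb in the same order of libraries, so the pair was closest per kb in wild type at 8 months. Ly6i, Ly6k and Ly6g stayed under 10 CPM per kb throughout.

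Both Ly6C genes varied several-fold over the libraries. Ly6c1 (ENSMUSG00000079018, 75044018 to 75048830, minus strand) measured 51.8 CPM in knockout against 8.64 CPM in wild type at 8 months, and 45.3 CPM against 39.3 CPM at 2 months. Ly6c2 (ENSMUSG00000022584, 75108158 to 75111970, minus strand) measured 49.4 CPM in knockout against 14.6 CPM in wild type at 8 months, and 127 CPM against 159.8 CPM at 2 months. For both genes the lowest library was wild type at 8 months. The other 3 libraries lay close together for Ly6c1, while for Ly6c2 the 8-month knockout was also below both 2-month libraries.

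Ly6d and Ly6i had the opposite order at 8 months. Ly6d (ENSMUSG00000034634, 74762056 to 74763620, minus strand) measured 67.2 CPM in knockout against 111 CPM in wild type at 8 months, and 58.9 CPM against 58.0 CPM at 2 months. Ly6i (ENSMUSG00000022586, 74979534 to 74983430, minus strand), the closest relative of Ly6a by coding sequence here, had 38 counts (1.63 CPM) in knockout against 212 counts (10.005 CPM) in wild type at 8 months, and 18 counts (1.05 CPM) against 50 counts (2.18 CPM) at 2 months. Wild type at 8 months was the highest library for both genes. At 2 months the intervals of Ly6d in knockout (55.3 to 62.6 CPM) and wild type (55.0 to 61.2 CPM) overlapped, so no difference was detectable.

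Ly6k and Ly6g were near the limit of detection. Ly6k (ENSMUSG00000044678, 74796874 to 74799986, minus strand) had 15 counts in knockout and 31 in wild type at 8 months, and 5 in knockout and 4 in wild type at 2 months. Ly6g (ENSMUSG00000022582, 75155240 to 75159126, plus strand), the neutrophil antigen, had 2 counts in knockout and 0 in wild type at 8 months, and 1 in knockout and 3 in wild type at 2 months. All 4 Ly6g counts lie at or under the limit of 3 counts that a count of 0 allows, 0.128 to 0.174 CPM by library, so no fold is given. The 0 in wild type at 8 months stood in the library with 1074 counts of S100a9 and 791 of S100a8, the calprotectin genes of neutrophils.

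**Figure D1:**
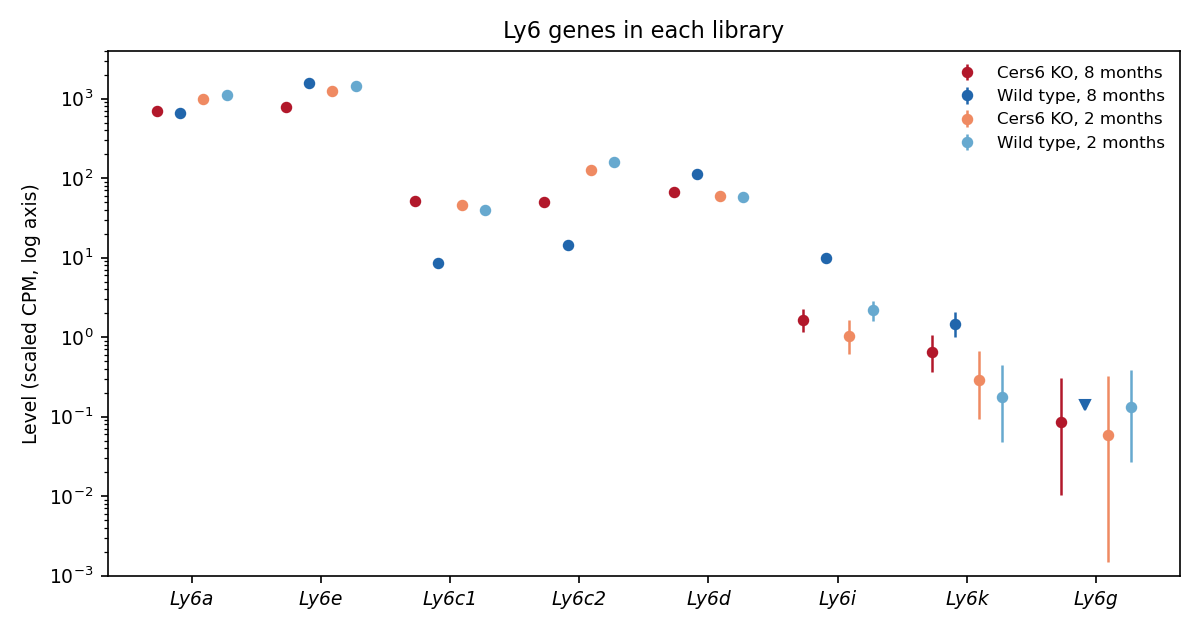
Level of each Ly6 gene in the 4 libraries, in scaled CPM on a log axis; points are single libraries, bars are 95% counting intervals, and the triangle marks the 3-count limit of Ly6g, which had 0 counts in the 8-month wild type. That library is the lowest for Ly6c1 (8.64 CPM) and Ly6c2 (14.6 CPM) and the highest for Ly6d (111 CPM) and Ly6i (10.005 CPM).

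Knockout was compared with wild type within each age, as log2 folds of scaled CPM with a prior count of 2. The 8-month pair sets the wild-type library with 98.6% Trbv14 and neutrophil markers at 130.4 CPM against a knockout library with 7.40% and 8.00 CPM. In that pair genotype cannot be told apart from these other differences. At 8 months Ly6c1 was higher in knockout by log2 2.57 (2.36 to 2.82) and Ly6c2 by 1.75 (1.58 to 1.95), while Ly6i was lower at -2.55 (-3.16 to -2.12). Ly6e at -0.999 (-1.03 to -0.97) fell just short of 2-fold, Ly6d had -0.73 (-0.82 to -0.63) and Ly6a 0.05 (0.02 to 0.08). Of the 6 members with 2 CPM or more in a library, 2 exceeded 2-fold upward and 1 downward, where 10.4% and 6.47% of the 12133 genes at that level were. These values helped to choose the genes, so nothing is read from the counts. Scaling by library size alone moves the median of all genes by 0.24 here, and Ly6e is then at -0.75 and Ly6a at 0.30. The median over the 6 was -0.34, against -0.0047 over all 12133, but -0.091 with library size alone and 0.00925 with the gene length trend removed.

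At 2 months the members differed little between genotypes. Ly6c1 had log2 0.20 (0.06 to 0.34), Ly6c2 -0.33 (-0.40 to -0.25), Ly6a -0.18 (-0.21 to -0.15), Ly6e -0.22 (-0.24 to -0.19) and Ly6d 0.02 (-0.10 to 0.14). Ly6i, at -0.995 (-1.92 to -0.26), was just short of 2-fold lower, on 18 counts against 50. None of the 6 was past 2-fold, where 0.923% of all genes were past it upward and 2.08% downward. The median over the 6 was -0.20, against -0.01 over all genes.

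The genotype folds of the Ly6C genes were further apart at 8 months. Between 8 and 2 months, the log2 fold of knockout over wild type differed by 2.37 for Ly6c1 and by 2.08 for Ly6c2. With 1 library a group this difference was not tested. Each difference uses the 8-month wild-type library, which stood apart, as 1 of its 4 values.

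Between the ages, the Ly6C genes were lower at 8 months in wild type and diverged in knockout. The wild-type pair sets the library with 98.6% Trbv14 against the library with Xist at 440.5 CPM. In that pair age cannot be told apart from these other differences. In 8-month over 2-month wild type, Ly6c2 had log2 -3.45 (-3.63 to -3.29), a 10.9-fold lower level, and Ly6c1 had -2.17 (-2.42 to -1.96). In knockout, Ly6c2 had -1.36 (-1.47 to -1.26) and Ly6c1 0.19 (0.06 to 0.33). Ly6c2 was therefore lower at 8 months in either genotype, and the knockout pair, which does not use the wild-type libraries, showed a 2.57-fold lower level. Ly6a was lower at 8 months in knockout (-0.51, -0.54 to -0.48) and in wild type (-0.74, -0.77 to -0.71).

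The age folds of the other members follow for each genotype, and the differences between genotypes were not tested. Ly6i had log2 0.59 (-0.21 to 1.53) in knockout and 2.15 (1.75 to 2.67) in wild type, and Ly6d had 0.19 (0.08 to 0.31) and 0.94 (0.84 to 1.04). Ly6e had -0.65 (-0.68 to -0.62) in knockout and 0.13 (0.11 to 0.15) in wild type. Ly6k had 0.94 (-0.39 to 2.96) in knockout, on 15 against 5 counts, and 2.54 (1.57 to 5.03) in wild type, on 31 against 4 counts, and these intervals overlapped. In knockout 0 of the 6 measured members passed 2-fold upward and 1 downward (10.3% and 4.71% of all genes). In wild type 1 was higher and 2 were lower (3.29% and 2.77% of all genes). The medians over the 6 were -0.16 in knockout and -0.30 in wild type, against -0.04 and -0.02 over all genes. The knockout median turned to 0.115 with library size alone, 0.0161 with the gene length trend removed and 0.193 with all genes with a count. The genotype and age contrasts share libraries and are not independent of each other.

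**Figure D2:**
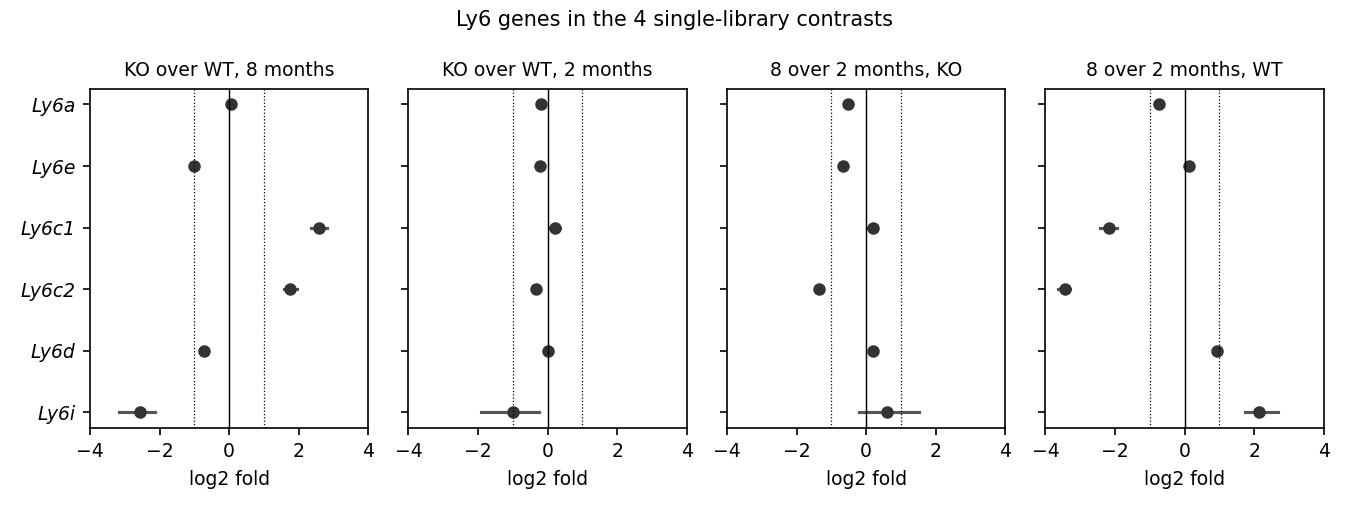
Log2 folds of the 6 Ly6 genes with 2 CPM or more in a library, in the contrasts of knockout over wild type at 8 and 2 months and of 8 over 2 months in knockout and wild type; points are fitted with a prior count of 2, bars are 95% counting intervals of the plain ratio, and dotted lines mark 2-fold. Ly6c1 and Ly6c2 lie to the right of 2-fold for knockout over wild type at 8 months (2.57 and 1.75) and near 0 at 2 months (0.20 and -0.33).

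The authors' deposited table gives its own comparisons of the same library pairs. Per the authors' deposited table, Ly6c1, Ly6c2 and Ly6i were marked as changed for knockout over wild type at 8 months, at log2 2.58, 1.76 and -2.62, where 1.69% of all 35275 genes were marked. The same 3 genes were marked for 8 over 2 months in wild type in the authors' deposited table, at -2.19, -3.45 and 2.20, against 0.655% of all genes. No member was marked for knockout over wild type at 2 months or for 8 over 2 months in knockout in the authors' deposited table, where 0.0142% and 0.882% of all genes were. These shares are over all 35275 genes, of which 21501 had a count in a library, so they are low beside shares of genes with a count. A missing mark does not mean a small fold. For 8 over 2 months, Ly6c2 stood at log2 -1.38 in knockout and Ly6k at 3.03 in wild type, both unmarked, per the authors' deposited table. The sources used here do not give how the authors estimated spread from single libraries.

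The balance between Ly6c2 and Ly6c1 differed in every library. Ly6c2 made up 48.8% (46.8% to 50.9%, Clopper-Pearson) of the counts of the pair in knockout and 62.8% (58.4% to 67.1%) in wild type at 8 months. At 2 months it made up 73.8% (72.1% to 75.3%) in knockout and 80.3% (79.1% to 81.4%) in wild type. No interval overlapped another. The Ly6c2 share was lower in knockout than in wild type at either age, and lower at 8 than at 2 months in either genotype. Reads that match both genes would move this share, and their number was not known.

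The length given for Ly6c2 in the deposited table changes how it ranks against Ly6c1. The table lists 2680 bases, the length of a retained-intron transcript in GENCODE M21, whereas the longest coding transcript has 822 bases, a difference of 3.26 times. For the other 7 members the deposited length is that of the longest coding transcript. With the deposited lengths, Ly6c2 per kb stood at 0.3004 times Ly6c1 in knockout and 0.532 times in wild type at 8 months, and at 0.885 times in knockout and 1.28 times in wild type at 2 months. With the coding transcript the ratios were 0.979, 1.73, 2.89 and 4.17 in the same order. Per kb, Ly6c2 thus lay under Ly6c1 in 3 of 4 libraries on the deposited length and in 1 of 4 on the coding length. Folds between libraries are not touched by this choice.

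Summed over the 8 genes, the level per kb of coding transcript was 1286 CPM per kb in knockout and 1579.8 in wild type at 8 months, and 1866 in knockout and 2122 in wild type at 2 months. The sum was lower in knockout than in wild type at each age and lower at 8 than at 2 months in each genotype. The members together took 0.190% of all counts in knockout and 0.232% in wild type at 8 months, and 0.233% and 0.267% at 2 months. Ly6a made up 56.5% of the summed level in knockout and 44.3% in wild type at 8 months, against 55.4% and 55.1% at 2 months. Ly6e made up 26.9% in knockout and 43.8% in wild type at 8 months, against 29.1% and 29.7% at 2 months. The 8-month wild-type library thus had a higher share of Ly6e and Ly6d (9.47%, against 3.68% to 7.03%) than the other 3, and a lower share of Ly6a and the Ly6C genes.

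**Figure D3:**
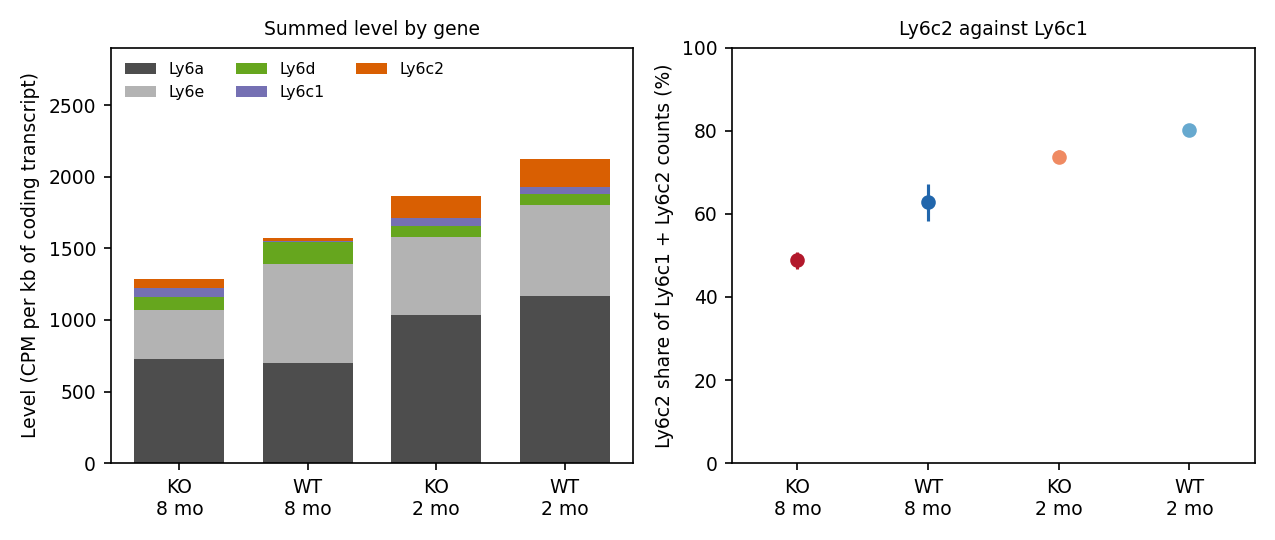
Left, summed level of the Ly6 genes by library in CPM per kb of the longest coding transcript, stacked by gene (Ly6i, Ly6k and Ly6g are too low to draw). Right, share of Ly6c2 among the counts of Ly6c1 and Ly6c2 with 95% counting intervals, which runs between 48.8% in knockout at 8 months and 80.3% in wild type at 2 months.

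Other genes of the cluster had few counts. The 8 Ly6 genes span 74762056 to 75159126 of chromosome 15, and 16 other genes start between the first and the last of them, 7 of which are pseudogenes. Only 5 of the 16 reached 10 counts in a library. The protein-coding 2010109I03Rik had 39 counts in knockout and 41 in wild type at 8 months, and 60 and 77 at 2 months. The long non-coding RNA Gm28068, between Ly6a and Ly6c1, had 31 counts in knockout and 12 in wild type at 8 months, and 7 and 2 at 2 months. The pseudogenes Gm6610, Gm8000 and I830127L07Rik had between 4 and 19 counts. Of the 5, Gm8000 had its lowest count in wild type at 8 months, 8 against 13 to 16, and at such depth only large differences would be detectable. The antisense gene Gm17189, which overlaps Ly6k, had 0 counts in every library.

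Genes with the most similar pattern over the 4 libraries were sought among 9441 protein-coding genes (receptor segments and clone-named genes left out) with a mean of 5 CPM or more, by the root mean square difference of log2 CPM about each gene's own mean. With 4 points such likeness is a description only. For Ly6a the nearest were Serpinb9, an inhibitor of granzyme B, at a difference of 0.00495, then the interferon-stimulated Ifi27l2a (0.0223) and the phospholipase gene Pla2g16 (0.0239). For Ly6e the closest were Tor1aip1, of the nuclear envelope (0.00846), and Babam1, of a DNA repair complex (0.0122).

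By this root mean square difference, which is not scaled to a gene's own variation, the Ly6C genes had less close matches than Ly6a or Ly6e. The Ly6C genes also varied more over the libraries, so the larger differences do not show that their pattern is rarer. For Ly6c1 the nearest were Erdr1 (0.146) and both chains of the interleukin-18 receptor, Il18rap (0.149) and Il18r1 (0.185). Il18rap measured 49.9 CPM in knockout against 8.68 CPM in wild type at 8 months, and 36.1 against 41.1 CPM at 2 months. For Ly6c2 they were the neurofilament gene Nefh (0.0856), the interferon-stimulated Ifit3 (0.190) and the granzyme B gene Gzmb (0.414). Ifit3 measured 12.5 CPM in knockout against 4.11 CPM in wild type at 8 months, and 25.9 against 34.9 CPM at 2 months. For Ly6d they were Plaur, the urokinase receptor and itself a distant member of the superfamily, Ikzf2, which encodes the transcription factor Helios, and Cd180, a B cell surface protein, between 0.0351 and 0.0548.

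**Figure D4:**
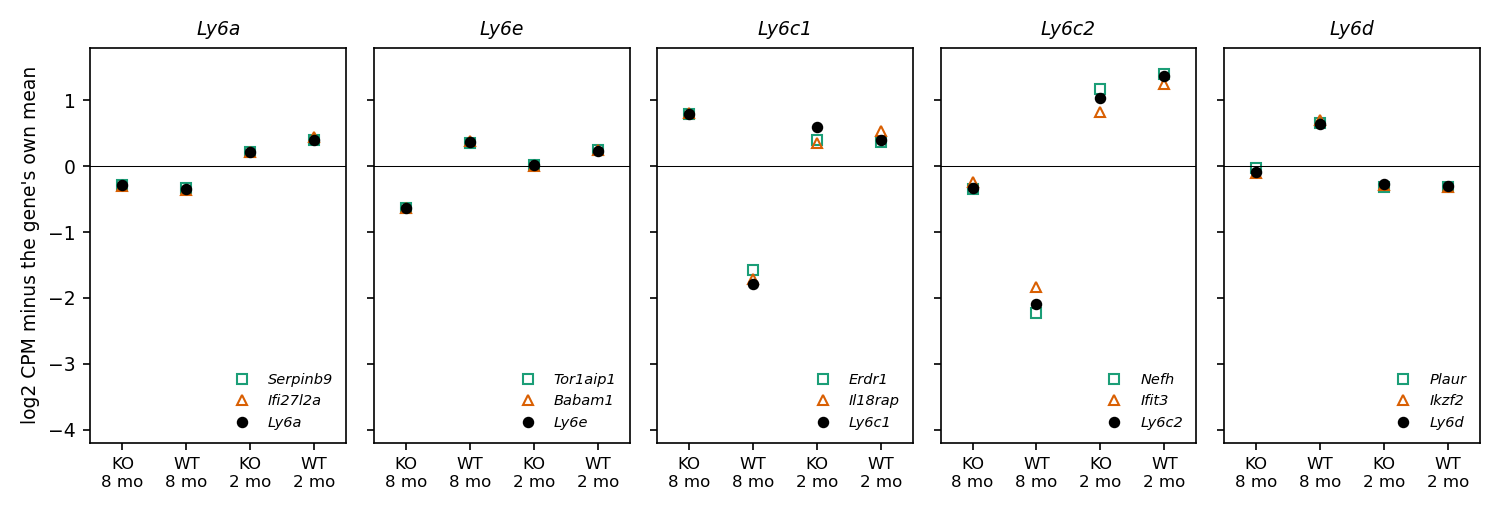
Log2 CPM of 5 Ly6 genes (filled circles) and of the 2 genes with the most similar pattern (open symbols) in the 4 libraries, each relative to its own mean. The matches of Ly6c1 share its single low value in wild type at 8 months, and those of Ly6c2 are high in both 2-month libraries.

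Related gene lists were tested with edgeR's quasi-likelihood test, in which age and genotype are additive terms over the 4 libraries. A difference limited to a single age or genotype counts as unexplained spread in this test, so such a gene can go uncalled. That test called 4 of 13906 genes for genotype (0.0288%) and 32 for age (0.230%) at a Benjamini-Hochberg adjusted p under 0.05, with 1162 and 1143 at an unadjusted p under 0.05 (DESeq2 called 18 and 60). Of 31 other genes of the Ly6 and urokinase receptor superfamily, 5 were deep enough to test and 0 were called for either effect. Plaur measured 30.8 CPM in knockout against 49.2 CPM in wild type at 8 months, and 25.2 against 25.3 CPM at 2 months, the same order as Ly6d, and 10 of the 31 had no count at all.

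Genes that build or share the GPI anchor were not called either. Of 28 genes of GPI anchor synthesis, 27 were tested and 0 called for genotype or age. Their median log2 folds lay between -0.08 and 0.01 in the 4 contrasts. For knockout over wild type at 8 months, 2 of the 27 were at least 2-fold higher and 1, Pigt, lower (10.4% and 6.47% of all genes). Pigt, a subunit of the transamidase that attaches the anchor, measured 48.5 CPM in knockout against 100.8 CPM in wild type at 8 months, and 73.2 against 82.3 CPM at 2 months. Of 12 other GPI-anchored lymphocyte antigens 0 were called. Among the 11 with 2 CPM or more, 1 was at least 2-fold higher and 2 were lower in knockout at 8 months (10.4% and 6.47% of all genes). Their median log2 fold there was -0.44. Cd52 measured 436 CPM in knockout against 872 CPM in wild type at 8 months, and 753 against 831 CPM at 2 months, an order like that of Ly6e. Thy1 measured 360.0 against 524 CPM at 8 months and 663 against 696 CPM at 2 months.

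Interferon genes showed some of the same order as the Ly6C genes without single genes being called. Of 44 interferon-stimulated genes tested, 0 were called for genotype or age. Of the 42 with 2 CPM or more, 10 passed 2-fold upward and 1 downward for knockout over wild type at 8 months, and 8 passed it downward with age in wild type, where 10.4%, 6.47% and 2.77% of all genes did. Their median log2 folds were 0.41 for knockout over wild type at 8 months, -0.03 at 2 months, -0.10 for age in knockout and -0.63 for age in wild type. The guanylate-binding protein gene Gbp4 measured 584 CPM in knockout against 181.6 CPM in wild type at 8 months, and 427 against 397.5 CPM at 2 months. Gbp2 measured 273 against 332 CPM at 8 months and 883 against 897 CPM at 2 months, and was thus low in both 8-month libraries.

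Of the 17 genes of the interferon pathway itself, all were tested and 0 called. For knockout over wild type at 8 months their median log2 fold was 0.62, with 5 at least 2-fold higher and 0 lower. Of all genes, 10.4% were 2-fold higher and 6.47% lower. Ifngr1, a chain of the interferon gamma receptor, measured 341 CPM in knockout against 126 CPM in wild type at 8 months, and 227 against 223 CPM at 2 months. The other chain, Ifngr2, had the other order at 8 months (71.7 against 89.3 CPM), as did Irf2, Socs1 and Irf9. Ly6a and Ly6e, also known as interferon-inducible, had a different order from Ifngr1 at 8 months with the main scaling. Ly6a was level between the genotypes (log2 0.05) and Ly6e was lower in knockout. For Ly6a this depended on the processing, with 0.30 under library size alone and 0.40 with the gene length trend removed. Library size alone also moves the median of all genes by 0.24.

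Among T cell subset and NK cell markers, Cd4 and most NK cell markers were low where the Ly6C genes were low, in the 8-month wild-type library, and the CD8 markers were not. Cd4 measured 202 CPM in knockout against 24.6 CPM in wild type at 8 months, and 127 against 115 CPM at 2 months, while Cd8a measured 412 against 556 CPM and 536 against 463 CPM. Both CD4 T cell markers were at least 2-fold higher in knockout at 8 months, where 10.4% of all genes were, and neither CD8 marker was. The 6 NK cell markers summed to 4.96 CPM in knockout and 0.661 CPM in wild type at 8 months, and to 11.9 and 16.2 CPM at 2 months, with Klra8 and Klra4 (the markers at 0) without a count in wild type at 8 months. None of these 3 lists had a gene called, with Cd4 at log2 3.03 for knockout over wild type at 8 months but 0.15 at 2 months. Of 18 memory and effector T cell genes 1 was called: Gzmb fell with age (log2 -2.59, edgeR adjusted p = 0.00187), at 194 CPM in knockout and 123 CPM in wild type at 8 months against 927 and 959 CPM at 2 months. This call, like every age call, was lost with library size alone, without the genotype term and on leaving out wild type at 2 months. The part of cell mixture in the Ly6C values was not tested.

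The summed levels of B cell, monocyte, neutrophil and plasma cell markers were, like Ly6d and Ly6i, highest in the 8-month wild type. The 12 B cell markers summed to 1604 CPM in knockout against 3814 CPM in wild type at 8 months, and 2355 against 2672 CPM at 2 months, with 0 called and none at 0. Of them 7 were at least 2-fold lower in knockout at 8 months, where 6.47% of all genes were. The 15 monocyte and macrophage markers summed to 51.2 CPM in knockout against 132 CPM in wild type at 8 months, and 33.2 against 47.5 CPM at 2 months, with 0 called for genotype. Ccr2 of this list had the other order, at 13.3 CPM in knockout against 5.66 CPM in wild type at 8 months. Of the 15, Lyz2 (adjusted p = 0.0181) and Cd14 (0.037) rose with age in the edgeR test. Of the 13 neutrophil markers, S100a8 (edgeR adjusted p = 0.00131) and S100a9 (0.000622) fell in knockout, and the same 2 genes with Lcn2 and Mmp8 rose with age. The 8 plasma cell markers summed to 341 CPM in knockout against 546 CPM in wild type at 8 months, and 295 against 352 CPM at 2 months. Prdm1 (22.0 CPM in knockout against 13.7 CPM in wild type) and Derl3 (18.9 against 13.5 CPM) had the other order at 8 months. The median log2 fold of the 7 measured plasma cell markers there was -0.07, with 0 at 2-fold. Igj, the joining chain of antibodies, rose with age (log2 2.11, edgeR adjusted p = 0.00131). All of these age calls were lost with library size alone, without the genotype term and on leaving out wild type at 2 months, and no gene was called higher with age on leaving out knockout at 2 months. The genotype calls of S100a8 and S100a9 were lost with library size alone, without the age term and on leaving out knockout at 8 months, wild type at 8 months or knockout at 2 months. S100a9 had 19 counts in knockout against 1074 in wild type at 8 months, and 1 against 11 at 2 months. The part of these cells in the Ly6d and Ly6i values was not tested.

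Further lists of cells that can carry Ly6 proteins were led by genes that other cells share. Of 6 markers of plasmacytoid dendritic cells, which carry Ly6C, the sum was 1036 CPM in knockout against 778 CPM in wild type at 8 months, and 849 against 912 CPM at 2 months, most of it from Irf8, at 889.6, 603, 708 and 776 CPM in that order, which B cells also express. The defining marker Siglech had 2 counts in knockout at 8 months and 0 in the other 3 libraries. Of 6 endothelial markers, Pecam1 at 115 to 182 CPM made up nearly all of the sum, Cdh5 reached at most 1.13 CPM and Emcn had no count. No gene of either list was called.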

How the data were processed

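The deposited table gives raw read counts per gene and FPKM, per the file headers. The FPKM deposited equal the count divided by gene length and library total, and served only to check lengths. STAR and CASAVA are named in the submitters' processing notes, with builds GRCm38 and mm10. The sources used here do not give the counting program, read length, strand or treatment of reads matching several genes. The log2 folds and p-values of the authors' comparisons were copied from the authors' deposited table, and the authors' normalized signal per comparison was not used.

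The counts were scaled with edgeR 4.0.16 TMM factors (R 4.3.3), and log2 folds used a prior count of 2. Genes with 2 CPM or more in a library counted as measured. Intervals are exact Poisson or binomial at 95%. Gene lists were tested with edgeR's quasi-likelihood test, whose additive terms leave 1 residual degree of freedom, with DESeq2 1.42.0 as an alternative. Counts were also simulated over 13906 genes, with the same spread for every gene and additive 4-fold changes, as the test assumes. On these the edgeR test recovered 81% of 100 genes changed for genotype, with 6 false calls, and 83% for age, with 3. The simulation had no library that stood apart and no change limited to a single age. These shares are therefore not the power of the test in the real libraries. Named genes were the members, neighbours with 10 counts or more, the 3 nearest genes of each member, and in each list the 4 most abundant and any called. Some genes that this rule names are not reported here. Members and lists were chosen with earlier results of these data known. Coding bases were compared in place of proteins. Replicates cannot be separated from groups with 1 library each.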

Additional observations from a re-analysis of the deposited data

Results flagged for a closer look

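In 4 members the 2 groups had folds of opposite sign under the same contrast, with both 95% counting intervals excluding no change. Ly6d, Ly6k and Ly6g also had opposite signs, but with an interval that included no change or with counts at the limit of detection. With 1 library a group, none of these differences was tested. For Ly6c2, knockout over wild type was higher at 8 months (log2 1.75) and lower at 2 months (-0.33), a difference of 2.08. For Ly6c1, 8 over 2 months was higher in knockout (0.19) and lower in wild type (-2.17), a difference of 2.37. For Ly6e, 8 over 2 months was lower in knockout (-0.65) and higher in wild type (0.13), a difference of -0.78. For Ly6a, knockout over wild type was 0.05 at 8 months and -0.18 at 2 months, a difference of 0.23. These small Ly6a folds moved with the processing, which the counting intervals do not cover. The 8-month fold became 0.30 with library size alone, and the 2-month fold -0.0097 with the gene length trend removed.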

How the results depend on the processing

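No fold of a named member changed sign under any alternative for scaling, prior count or gene length trend. With median-of-ratios factors, 2 members were at least 2-fold lower for knockout over wild type at 8 months and 1 at 2 months. At 2 months there was also 1 with a prior count of 0.5. With all genes with a count kept, 2 were lower for knockout over wild type at 8 months and 2 higher for age in wild type, and the member median for age in knockout was 0.19. With library size alone the medians were -0.091 for genotype at 8 months, 0.115 for age in knockout and -0.273 for age in wild type. With the gene length trend removed they were 0.00925 and -0.0783 for genotype at 8 and 2 months and 0.0161 for age in knockout. The summed level per kb of deposited length (1245 in knockout and 1567 in wild type at 8 months, 1759 and 1987 at 2 months) became 1429, 1518, 1669 and 1883 with library size alone. Without Ly6c1 and Ly6c2 it was 1165, 1552, 1658 and 1881. With median-of-ratios factors it was 1228 in knockout at 8 months and 2007 in wild type at 2 months. With the coding transcript length, an alternative chosen after seeing the data, it was 1286 in knockout at 8 months and 1866 and 2122 in knockout and wild type at 2 months. The edgeR calls for genotype (4) became 0 with library size alone (938 at an unadjusted p under 0.05), 0 without the age term (804), 135 with all genes with a count, 117 at a mean of 5 CPM or more and 18 with DESeq2. Those for age (32) became 20 with median-of-ratios factors, 0 with library size alone (807), 0 without the genotype term (830), 199 with all genes with a count, 137 at a mean of 5 CPM or more and 60 with DESeq2. Leaving out 1 library, with the other factor dropped from the fit, gave 0 to 101 genotype calls, the 101 without wild type at 2 months, and 0 (425 unadjusted) to 3308 age calls, the 3308 without wild type at 8 months. The cause of these changes was not tested. No paired analysis was possible because each group has 1 library. Depth limits Ly6g and Ly6k, with at most 3 and 31 counts.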
